A study of Mus musculus with 43 samples.

Results

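Gene-to-gene variability was compared between single cells and pools of 10 cells of PD798, a pancreatic tumor line. The comparison covers 9 of the 11 libraries labelled as 1 cell and all 12 libraries labelled as 10 cells, out of 31 libraries of the input table and 43 libraries of the whole series. Single cells 6 and 9 were left out, and this set of 9 was selected on the expression profiles themselves. Values of the 9 cells, with the search for outlying cells near the end, are therefore given as a description. Every main test of cells against pools uses the 11 cells and 12 pools as labelled. Of 13817 genes in the table, 13308 lie on autosomes, and 11895 of these reached 1 TPM (transcript abundance scaled within each library) in at least 3 of the 31 libraries and were compared. A narrower set of 1750 abundant genes had a median of at least 100 TPM over the 12 pools, which fixes their detection in the pools by the choice of genes.

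The line was established from KPCY mice, whose alleles include Rosa YFP/YFP, Pdx1-cre and a p53 allele written L/+. In these mice, cre under the Pdx1 promoter switches on YFP in cells of pancreatic lineage. All single cells and pools came from this 1 line, grown in medium with serum, spiked into normal mouse blood, pre-enriched and sorted by flow cytometry as single cells or as 10 cells into tubes, then lysed and amplified with the SMART-Seq v4 kit. No separate cultures are named, so p-values measure only the spread between libraries, which may be technical. TPM keeps no record of read number, so the depth behind a value cannot be read from these data and a gene listed at 0 cannot be called absent.

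Most genes are transcribed in bursts, and a cell holds few copies of many messenger RNAs, so copy number differs between sister cells at any moment. A pool of cells averages these differences. In a pool, a lower level can come from fewer cells with a transcript or from less of it per cell, which cannot be told apart. Programs that run in only part of a culture, such as the cell cycle, inflammatory signalling through NF-kB or responses to amino acid shortage, add differences shared by many genes, whereas ribosome and respiratory chain genes are used by every growing cell.

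Several libraries stood apart. Single cells 6 and 9 held 11052 and 10856 autosomal genes at 1 TPM or more, compared with 3810 to 8580 (median 5622) in the other 9 cells and 8841 to 11117 (median 9775) in the pools. These cells and pools 5 and 12 correlated with each other at r of 0.977 to 0.9955 across genes (6 pairs), whereas pairs among the 9 cells had r of 0.549 to 0.727 (36 pairs, median 0.639) and pairs among the 12 pools 0.866 to 0.994 (66 pairs, median 0.917). Together with 100-cell pools 1 to 3, these 4 libraries had r of 0.967 to 0.9955 (21 pairs), and the other 10 pools had r of 0.866 to 0.949 among themselves. In single cells 1 to 4, at most 1 of 474 X-linked genes was above 0, compared with 114 to 243 in single cells 5, 7, 8, 10 and 11, and for this reason X-linked genes were not used. The TPM values of a library add up to a fixed total over the genes it was scaled on, which are not given in the sources used here. The listed genes summed to 86.5% to 96.6% of the nominal TPM total in single cells 1 to 4 and to 54.2% to 65.3% in single cells 5, 7, 8, 10 and 11, compared with 93.5% to 99.98% in the pools. The 9 cells thus fall into 2 sets of libraries whose difference cannot be told apart from cell-to-cell difference, and values of the cytokine, cell cycle, stress, synthetase and p53 lists are also given within each set.

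Fewer genes were detected in a single cell than in a pool. The median number of autosomal genes at 1 TPM or more was 5812 over the 11 labelled cells and 9775 over the 12 pools, a difference (cells minus pools) of -3963 (two-sided permutation test with 100000 resamples, p = 0.0043). Without single cells 6 and 9 and pools 5 and 12, the difference was -4098.5 genes, given without a test since these libraries were set apart by such values. Detection in the 9 cells followed the level of the gene in bulk RNA, libraries that belong to neither group. Of 6393 genes at a mean of 10 to 100 TPM in the bulk RNA, 30.1% to 82.6% (median 50.5%) were at 1 TPM or more in a single cell and 84.6% to 99.9% (median 93.2%) in a pool. Of 2097 genes at 100 to 1000 TPM, the medians were 89.1% and 99.8%, and of 82 genes at 1000 TPM or more both medians were 100%. Cells with few detected genes, 8 and 11, lay lowest in the middle bins, as the plot of detection by bulk level shows.

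**Figure D1:**
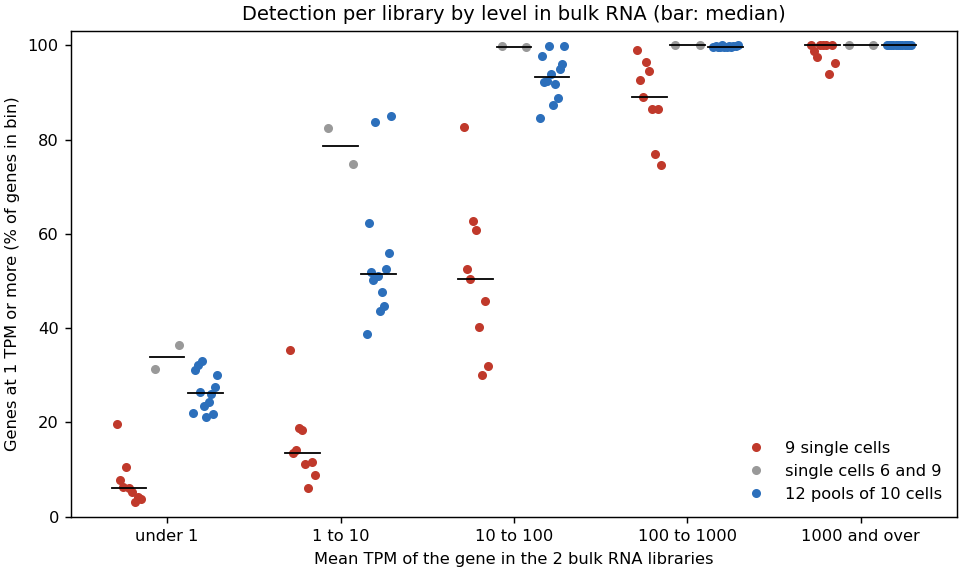
Share of genes at 1 TPM or more (y axis, percent) in each library, for genes binned by their mean TPM in the 2 bulk RNA libraries (x axis). Each point is 1 library, red for the 9 single cells, grey for single cells 6 and 9 and blue for the 12 pools of 10 cells, and bars are medians. In genes of 10 to 100 TPM the 9 cells reach from 30.1% to 82.6% and the pools from 84.6% to 99.9%, whereas grey points lie among the highest pools.

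Pooled together, the single cells recovered most of what the pools held. Of 10211 genes at 1 TPM or more in at least 6 of the 12 pools, 9692 (94.9%) reached 1 TPM in at least 1 of the 9 cells and 519 in none. The mean of the 9 cells and the mean of the 12 pools correlated at r = 0.949 across genes on the log2 scale, compared with 0.657 to 0.855 (median 0.773) for 1 cell against the mean of the pools. Gene by gene, detection at 1 TPM was lower in the 11 labelled cells for 1253 of 11895 genes (10.5%) and higher for 0 (0%), with Fisher's exact test and Benjamini-Hochberg adjustment at 0.05. At an unadjusted p under 0.05 these counts were 3980 and 5. The count of genes lower in the cells was 0 when any 1 of the 12 pools was left out and, as a description, 2922 without single cells 6 and 9, and the shares of genes above are therefore the firmer description.

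The spread of a gene was taken as the standard deviation (SD) of log2(TPM + 1) over libraries, a scale on which differences between low genes are understated. Over 11895 genes the median SD was 1.73 in the 9 cells and 0.676 in the 12 pools, and 9828 genes (82.6%) had the higher SD in the cells. Many low genes were listed at 0 in most cells, which limits their SD: by the median absolute deviation, which such genes bring to 0, the medians over all genes were 0.317 in the cells and 0.523 in the pools, the opposite order. Abundant genes gave the same order by both measures. Their median SD was 1.20 in the cells and 0.314 in the pools (0.318 without pools 5 and 12), with 1737 of 1750 (99.3%) higher in the cells, and the median absolute deviations were 0.902 and 0.297. On linear TPM, the squared coefficient of variation of an abundant gene was 8.96 times as high in the cells as in the pools at the median (lower quartile 4.97, upper quartile 16.1). The median SD of abundant genes was 0.827 within single cells 1 to 4 and 1.17 within single cells 5, 7, 8, 10 and 11, both above that of the pools.

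Genes missed in a cell made up the upper part of this range. Of the 1750 abundant genes, 1165 were at 1 TPM or more in all 9 cells, with a median SD of 0.900 in the cells and 0.292 in the pools. The other 585 had a median SD of 2.73 in the cells and 0.365 in the pools. A miss at this level brings a high SD by itself, here at least 2.02. The order of the medians over the cells thus follows from the split. Misses were unevenly spread over cells, with 5 and 6 abundant genes below 1 TPM in single cells 1 and 4, and 236 and 294 in single cells 8 and 11. Without single cells 8 and 11 the median SD of abundant genes over the remaining 7 cells was 0.989, and 98.2% were still above their SD in the pools.

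**Figure D2:**
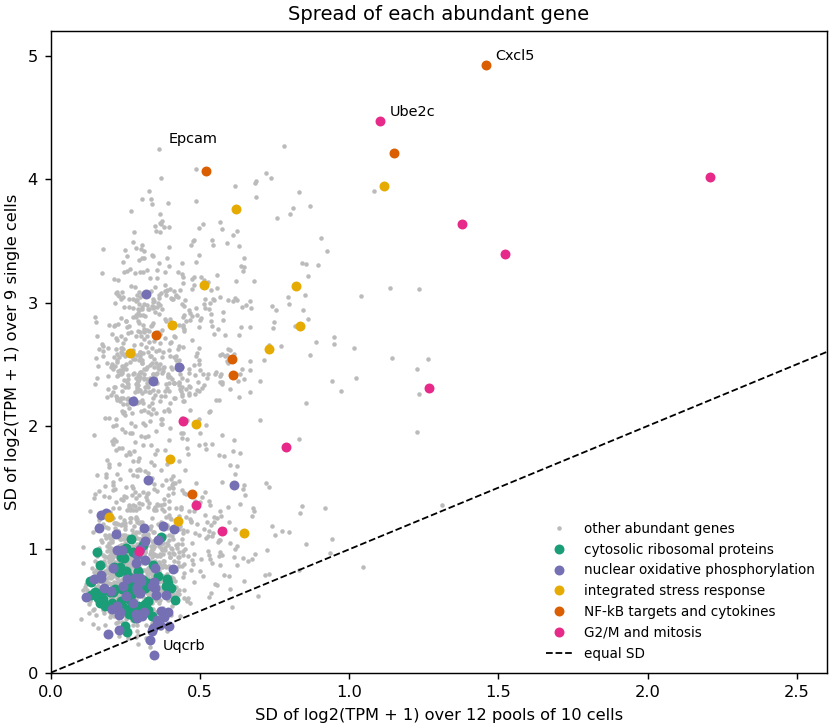
SD of log2(TPM + 1) over the 12 pools (x axis) and over the 9 single cells (y axis) for each of the 1750 abundant genes. Colours mark members of 5 gene lists and the dashed line equal SD. 1737 genes lie above the line, ribosomal protein and respiratory chain genes lie mostly at the lower left, and Cxcl5 (4.92 in the cells, 1.46 in the pools) lies highest.

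The variance of each gene was tested with limma on the absolute deviation of each library from the median of its group, for 11 cells against 12 pools as labelled. Of 11895 genes, 1891 (15.9%) were more variable in the single cells at an adjusted p under 0.05 and 73 (0.614%) were more variable in the pools. The counts depend on the libraries: 439 and 14 without pools 5 and 12 and, as a description, 1286 and 484 without these and single cells 6 and 9. The 5 genes of lowest adjusted p in the first direction were Bet1l (a SNARE of the Golgi), Mpdu1 (dolichol-linked sugar use), Kpna4 (an importin), Psmc3ip (homologous recombination) and Acp5 (an acid phosphatase), each with an adjusted p of 0.0081. All 5 were at 1 TPM or more in 4 of the 9 cells and in every pool. Psmc3ip, for example, lay at 29.3 to 90.5 TPM (median 53.6) in the pools, at 13.8, 61.8, 152 and 119 TPM in single cells 1, 3, 4 and 5, and at 0 to 0.308 TPM in the other 5. The 5 genes of lowest adjusted p in the other direction (2610528A11Rik, Pabpc4l, AW046200, Zfp558 and A630095N17Rik) were listed at 0 in all 9 cells and had pool medians of 0.276 to 1.09 TPM, and so were read in pools but in none of these cells.

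The 10 abundant genes with the highest SD over the 9 cells were Cxcl5, Ube2c, Cnfn, Epcam, Csf3, Dynap, Cxcl2, Crcp, Pbk and Ephx1. Cxcl5, a chemokine that attracts neutrophils, lay at 578, 7341, 189, 1766, 521 and 132 TPM in single cells 1, 3, 4, 7, 8 and 10 and at 0.317, 0.0686 and 0 TPM in single cells 2, 5 and 11, against 71.0 to 1817 TPM (median 623) in the pools. The single cells thus reached both above and below every pool (SD 4.92 and 1.46). Ube2c, a ubiquitin-conjugating enzyme that works with the anaphase-promoting complex, ranged from 0 TPM in single cells 2 and 11 to 1438 TPM in single cell 8 (SD 4.47), and from 80.0 to 1154 TPM in the pools. Cnfn, a cornified envelope protein, ranged from 0 to 7617 TPM in the cells and from 476 to 2765 TPM in the pools. Epcam, an epithelial adhesion protein used to capture tumor cells, lay at 57.3 to 2349 TPM in 7 cells but at 0.138 and 0 TPM in single cells 3 and 11, while all pools lay between 543 and 1311 TPM (SD 4.25 and 0.364). Csf3 (a granulocyte growth factor), Dynap, Cxcl2, Crcp, Pbk (a mitotic kinase) and Ephx1 (an epoxide hydrolase) followed, with SDs of 4.01 to 4.21. Of these 10 genes, Cnfn, Csf3, Crcp and Ephx1 passed the variance test (limma, adjusted p = 0.045, 0.022, 0.022 and 0.046), and the adjusted p of the other 6 ranged from 0.062 to 0.16.

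The lowest SDs over the cells belonged to Uqcrb, Atp6v1f, Tomm7, Ndufa12 and Spcs1. Uqcrb, a subunit of respiratory complex III, lay between 500 and 685 TPM in all 9 cells (SD 0.143) and between 406 and 880 TPM in the pools (SD 0.345). Atp6v1f (the vacuolar proton pump), Tomm7 (import into mitochondria), Ndufa12 (complex I) and Spcs1 (signal peptidase) had SDs of 0.210 to 0.265 over the cells. All 5 were among the 13 abundant genes whose SD was not higher in the cells than in the pools, together with Atpif1, Hsbp1, Shfm1, Cox6b1, Gsr, Rbm42, Pkm and Pim3, named after their values were seen. Tomm7, at 97.3 to 164 TPM in the 9 cells and 80.4 to 156 TPM in the pools, was the lowest in level of the first 5.

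**Figure D3:**
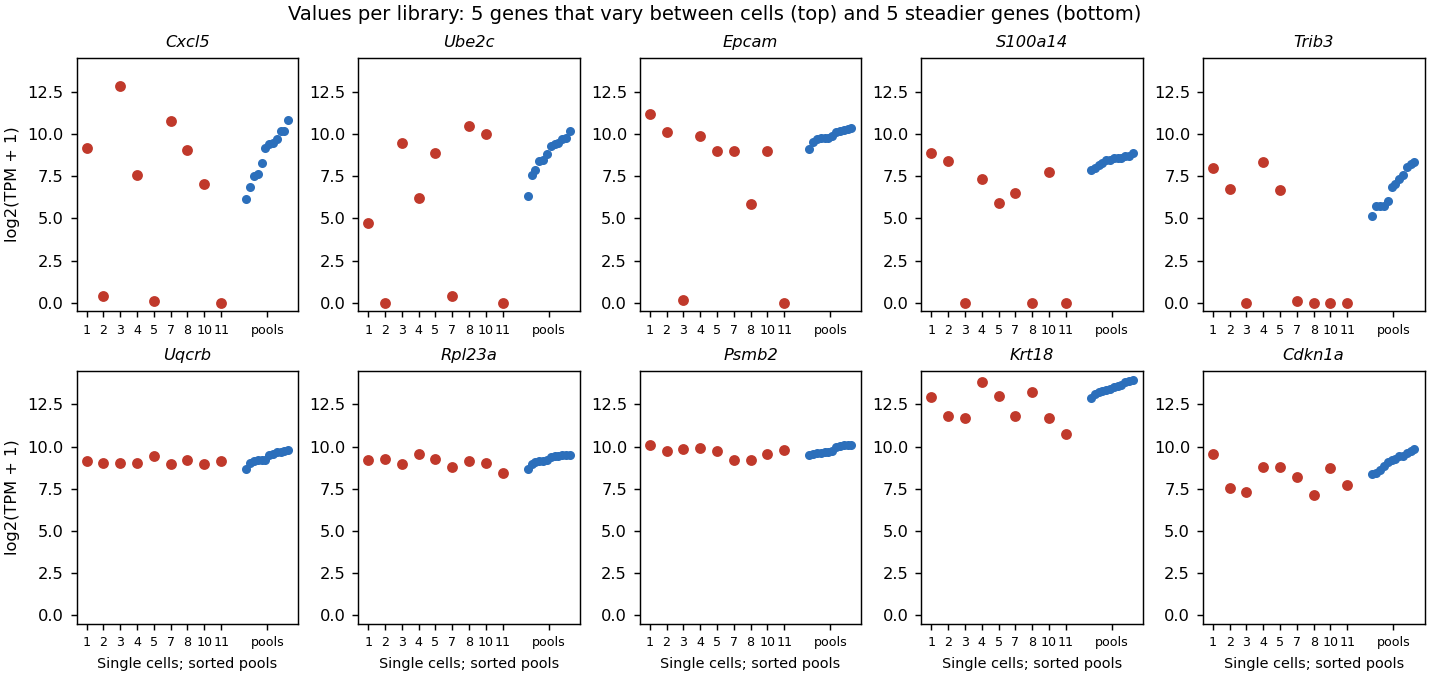
Value of log2(TPM + 1) (y axis) in each of the 9 single cells (red, by cell number) and in the 12 pools (blue, sorted by value) for Cxcl5, Ube2c, Epcam, S100a14 and Trib3 (top) and Uqcrb, Rpl23a, Psmb2, Krt18 and Cdkn1a (bottom). In the top row single cells sit at or near 0 or near the pools, with few values between, and in the bottom row all cells are above 0.

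Variation was then described by function, with 20 gene lists, by the SD of their abundant members over the 9 cells. Each list is set against the median of all 1750 abundant genes, 1.20. Since SD depends on level, members are also set against the running median of 500 genes of like level. Of all abundant genes, 50.6% lay above it. So did 6 of 10 G2/M and 4 of 6 G1/S genes, 10 of 13 synthetases and 16 of 20 chaperones. Immediate-early and epithelial genes had 12 of 14 each above it, S100 proteins and annexins 9 of 13 and ribosome biogenesis 4 of 8. Counts were lower for the proteasome (14 of 32), glycolysis (3 of 8) and the respiratory chain (16 of 68). The smallest lists had 3 of 5 (cholesterol synthesis), 2 of 3 (mesenchymal), 0 of 3 (MHC class I) and 0 of 1 (histones). By list median, inflammatory, integrated stress response and cell cycle genes lay above 1.20, and ribosomal, respiratory chain, proteasome and glycolysis genes below. The median of chaperones, 1.19, lay close to it. The variance test of the labelled libraries gave another order, but since it misses many genes, a low count is not evidence that a list is steady. Of all genes tested, 15.9% were more variable in single cells. The test called 5 of 19 S100 proteins and annexins, 5 of 20 aminoacyl-tRNA synthetases, 4 of 17 mesenchymal and 6 of 26 cytokine list genes. It also called 6 of 27 immediate-early, 7 of 36 G1/S and 6 of 31 epithelial genes. Near this share lay 3 of 19 p53 targets, 3 of 20 stress response genes, 11 of 75 ribosomal protein genes and 3 of 22 MHC class I and interferon genes. Fewer were called among cholesterol synthesis (2 of 22), histone (2 of 26), ribosome biogenesis (2 of 26), glycolysis (1 of 15), respiratory chain (5 of 77), proteasome (2 of 36), G2/M (1 of 50) and gastric-type (0 of 7) genes. No gene of the 20 lists was more variable in pools, beside 0.614% of all genes tested. The lists are of different size and level, and how they compare with all genes was not tested.

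**Figure D4:**
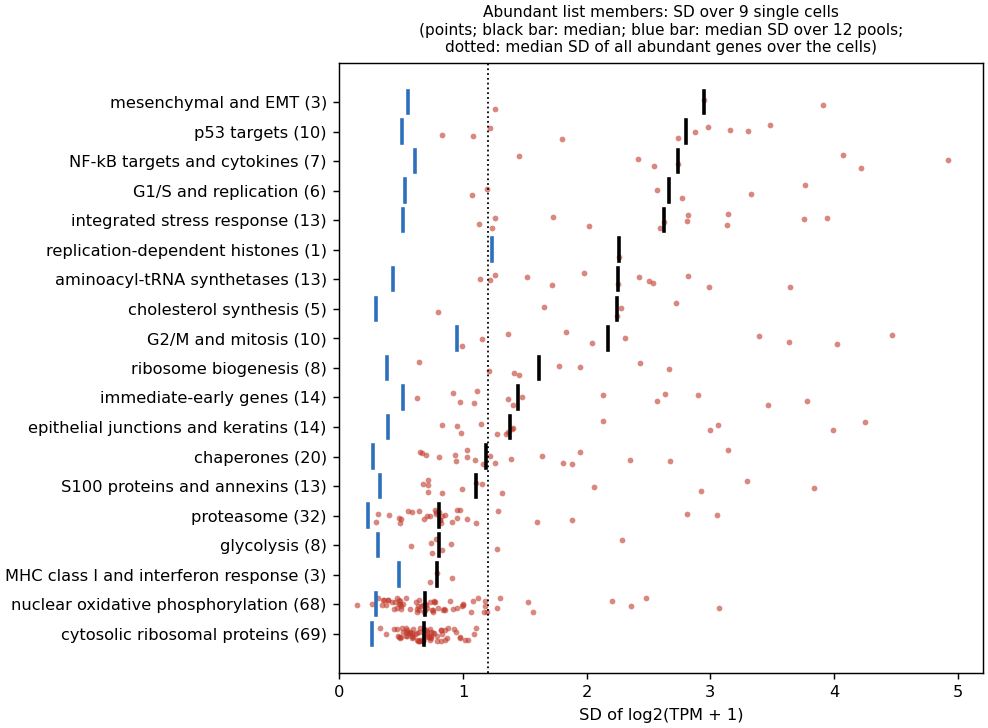
SD of log2(TPM + 1) (x axis) over the 9 single cells for each abundant member (points) of each gene list (rows, number of abundant members in brackets). Black bars are medians over the cells, blue bars medians over the 12 pools, and the dotted line is the median of all abundant genes over the cells (1.20). Medians run from 0.683 for cytosolic ribosomal proteins to 2.95 for the 3 mesenchymal genes (1.55 without single cells 8 and 11), and every blue bar lies left of its black bar.

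All 7 abundant genes of the NF-kB and cytokine list (Cxcl1, Cxcl2, Cxcl5, Cxcl16, Csf3, Nfkbia and Lcn2) had an SD above that of genes of like level, with a median of 2.74 in the cells and 0.609 in the pools. The median over the cells was 2.12 within single cells 1 to 4, 2.56 within single cells 5, 7, 8, 10 and 11, and 2.24 without single cells 8 and 11. Levels were summed over the list as scaled TPM, with each library's table rescaled to the same total, and ran from 1689 in single cell 5 and 1840 in single cell 4 to 23904 in single cell 11 and 43444 in single cell 3, a 25.7-fold range, compared with 4307 to 10786 in the pools. The rescaling raises single cells 5, 7, 8, 10 and 11 most, since their tables have the smallest sums. In deposited TPM single cells 1, 3 and 11 lay above all pools (12166, 39360 and 15572, compared with at most 10720), whereas single cell 7 (7938) lay among them. Members with a wide range included Lcn2 (lipocalin 2, an iron-carrier binding protein of innate defence), which reached 11860 TPM in single cell 3 and, in single cell 11, 10352 TPM but was at 111 to 382 TPM in single cells 4, 5, 8 and 10, and Cxcl1, which was highest in single cell 3 (4879 TPM) and lowest in single cell 5 (32.9 TPM). Cells differed in which members were high. Single cell 11, second in the sum, listed Cxcl2, Cxcl5 and Csf3 at 0, and Cxcl3 was at 1043 TPM in single cell 3, 163 TPM in single cell 8, 21.3 TPM in single cell 4 and 0 in the other 6. Nfkbia, which encodes the inhibitor of NF-kB, varied least of the abundant members, from 30.7 to 630 TPM.

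NF-kB acts through short DNA motifs near the start of many of these genes. Only 1 form of the kB motif was searched, GGG, then any 2 bases, then TTTCC, and other forms were not. Both strands were searched (on the other it reads GGAAA, any 2 bases, CCC) in the 250 bases before each RefSeq start of the GRCm38.p6 table. There this form occurs in 464 of 32851 promoters (1.41%). A promoter was given for 20 of the 26 list members, too few to read a share over the list. None was given for Cxcl5 and Csf3, so these were not searched. Matches to this form were found in at least 1 promoter of 9 of the 20 (Ccl20, Csf1, Cxcl1, Cxcl2, Cxcl3, Il6, Nfkb2, Nfkbia and Tnfaip3). None was found in the other 11, Lcn2 among them, which does not show that they lack a kB site. The stretches of the neighbouring chemokine genes Cxcl1, Cxcl2 and Cxcl3 and of Nfkbia are shown with the matching letters in capitals, since these 4 were described above and differ in their pattern over the 9 cells. They lie at chr5:90891126-90891213 (plus strand), chr5:90903772-90903860 (plus strand), chr5:90785998-90786067 (plus strand) and chr12:55492648-55492706 (minus strand). A match of letters is not evidence of a bound site.
Cxcl1: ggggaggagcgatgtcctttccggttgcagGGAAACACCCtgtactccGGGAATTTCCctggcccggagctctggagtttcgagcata
Cxcl2: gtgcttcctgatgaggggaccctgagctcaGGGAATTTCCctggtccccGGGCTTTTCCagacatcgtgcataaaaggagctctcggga
Cxcl3: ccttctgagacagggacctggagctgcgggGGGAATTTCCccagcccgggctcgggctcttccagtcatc
Nfkbia: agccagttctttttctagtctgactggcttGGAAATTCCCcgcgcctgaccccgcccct

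Cell cycle genes divided the cells into high and low. The 50 genes of the G2/M and mitosis list summed to 5586 to 9994 scaled TPM in single cells 3, 4, 5, 8 and 10. They summed to 616 to 1223 in single cells 1, 2, 7 and 11, with no value between. The pools spread from 1170 to 7616 (median 4588). In deposited TPM these sums were 4043 to 6378, 365 to 1182 and, in the pools, 1163 to 7417. Single cells 8 and 10 thus lay above all pools only after the rescaling. In the first 5 cells 36 to 46 of the 50 genes were at 1 TPM or more, and in the other 4 cells 8 to 17. Cdk1, the kinase that drives entry into mitosis, lay at 56.5 to 409 TPM in the first set and 14.7 to 35.7 TPM in the second. The 10 abundant members had a median SD of 2.18 in the cells and 0.947 in the pools, the latter above the 0.314 of all abundant genes. Over the cells it was 1.57 within single cells 1 to 4 and 2.76 within single cells 5, 7, 8, 10 and 11. These members moved together, with a median pairwise r of 0.718 over the 9 cells (45 pairs of genes) compared with 0.148 over pairs of all abundant genes. The G1/S list, which holds replication genes, summed to 480 and 894 scaled TPM in single cells 2 and 1 and to 2029 to 6295 in the other 7 (in deposited TPM 415 and 864, and 1100 to 5703), and its sum followed that of the G2/M list at r = 0.758 over 9 cells. Its 6 abundant members had a median SD of 2.67 in the cells and 0.527 in the pools, with 1.41 within single cells 1 to 4 and 3.33 within single cells 5, 7, 8, 10 and 11. Rrm2, a subunit of ribonucleotide reductase, had the highest SD of its abundant members (3.77, from 0.482 to 1265 TPM) and Tipin, a fork protection factor, the lowest (1.07, from 49.8 to 472 TPM).

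Genes of the integrated stress response, the program that Atf4 drives when amino acids are short or proteins misfold, all exceeded genes of like level, 13 of 13, with a median SD of 2.63 in the cells and 0.512 in the pools. The median was 1.80 without single cells 8 and 11, 1.404 within single cells 1 to 4 and 2.91 within single cells 5, 7, 8, 10 and 11. Their sum was 9234 to 9652 scaled TPM in single cells 2, 4 and 5, 6261 in single cell 1 and 2531 to 4381 in the other 5, compared with 5105 to 8283 in the pools. In deposited TPM, single cells 1 and 5 were alike (6050 and 6030), single cells 2 and 4 were at 8352 and 8746, and the other 5 reached at most 3415. Atf4 itself lay at 342, 535, 732 and 387 TPM in single cells 1, 2, 4 and 5 and at 76.3 to 139 TPM in the other 5, with the pools at 331 to 507 TPM, and its variance passed the test (limma, adjusted p = 0.026). Trib3, a pseudokinase induced late in this response, was at 104 to 325 TPM in single cells 1, 2, 4 and 5 and at 0 to 0.0584 TPM in the other 5, so that the same 4 cells stood apart. The aminoacyl-tRNA synthetases, which charge tRNAs with amino acids, followed this division. They summed to 4566 to 5573 scaled TPM (2981 to 5202 deposited TPM) in single cells 1, 2, 4 and 5. In the other cells they were at 1122 to 2831 scaled TPM (730 to 1535 deposited TPM). Their 13 abundant members had a median SD of 2.25 in the cells and 0.430 in the pools. This median was 1.26 without single cells 8 and 11, 1.29 within single cells 1 to 4 and 2.93 within single cells 5, 7, 8, 10 and 11. Cells with more detected genes had higher sums of these lists, with r of 0.709 for synthetases and 0.53 for the stress response over 9 cells. This was not particular to them. For other lists r was 0.808 (chaperones), 0.416 (p53 targets), -0.631 (glycolysis) and -0.684 (respiratory chain), whereas it was -0.0283 for G2/M and -0.2 for cytokine genes. The part of detection in the differences between cells was not tested.

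The 10 abundant p53 target genes also all exceeded genes of like level, with a median SD of 2.80 in the cells and 0.502 in the pools. It was 1.59 without single cells 8 and 11, 1.63 within single cells 1 to 4 and 3.28 within single cells 5, 7, 8, 10 and 11. Their sum ran from 995 scaled TPM in single cell 3 and 1769 in single cell 8 to 7243 in single cell 10 and 9493 in single cell 5. In deposited TPM single cell 5 was again highest (6198), but single cell 10 (4283) lay below single cells 1 and 4 (4989 and 4662). Gdf15, a secreted stress hormone, varied most (SD 3.48, from 0 to 450 TPM). Mdm2, the ligase that degrades p53, ranged from 0.0469 TPM in single cell 8 to 847 TPM in single cell 10. Cdkn1a, which encodes the cell cycle inhibitor p21, varied least, from 136 to 741 TPM in the cells and 330 to 941 TPM in the pools, and was read in all 9 cells.

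**Figure D5:**
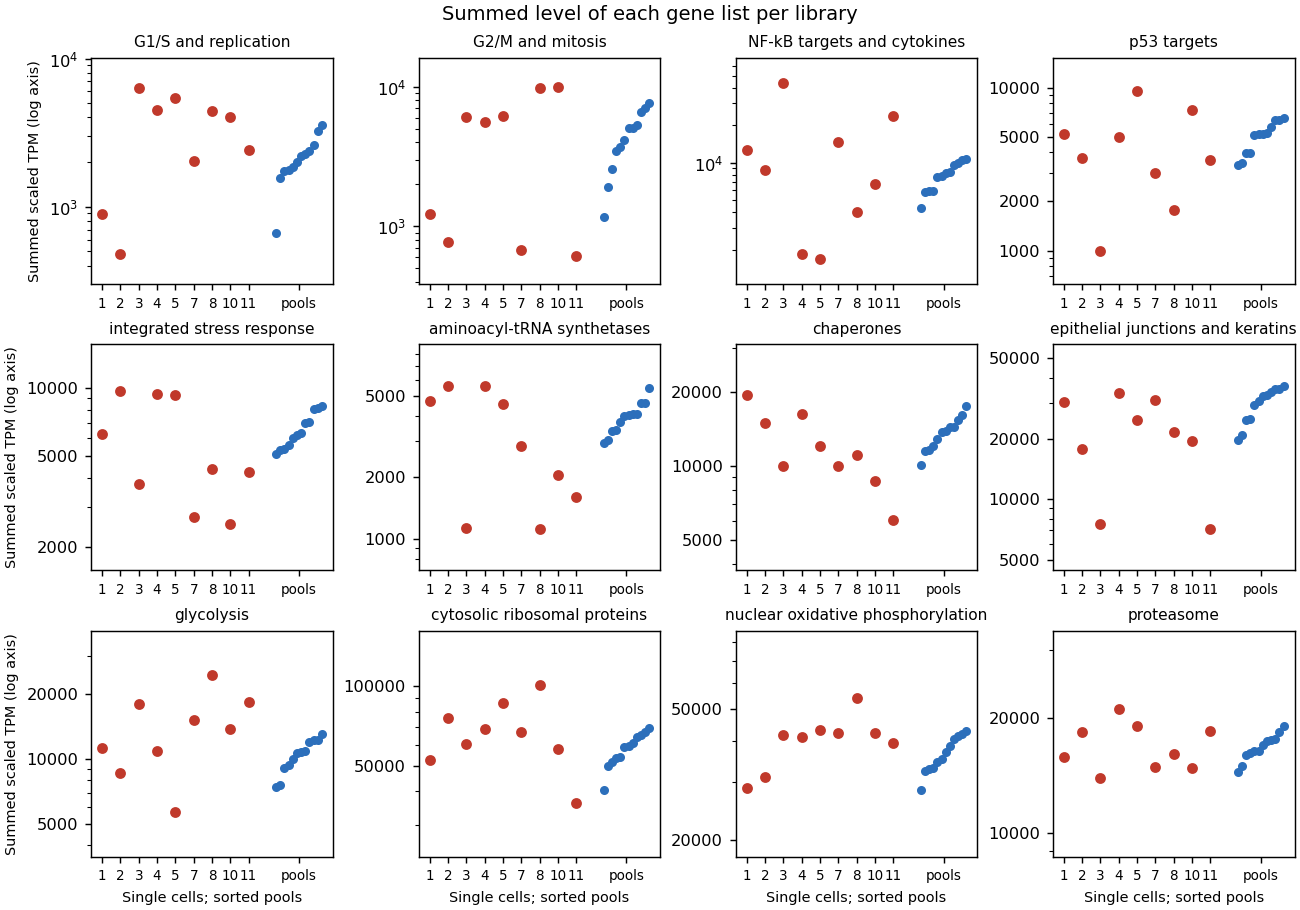
Summed scaled TPM of the autosomal members of 12 gene lists (y axes, log scale) in each of the 9 single cells (red, by cell number) and in the 12 pools (blue, sorted by value). For G2/M genes 5 cells lie at 5586 to 9994 and 4 cells at 616 to 1223, for cytokines single cells 1, 3, 7 and 11 lie above all pools (12590 to 43444, compared with at most 10786), of which single cell 7 does so only after the rescaling, and for proteasome genes cells (13917 to 21107) and pools (14446 to 19044) cover nearly the same range after this rescaling.

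The epithelial label held in all cells, to different degrees, and the 14 abundant genes of epithelial junctions and keratins had a median SD of 1.38 in the cells and 0.392 in the pools. All 10 ductal epithelial markers were in the table, and their sum was 5316 to 31490 scaled TPM in the 9 cells (lowest in single cells 11 and 3, at 5316 and 6457) and 17849 to 32460 in the pools. Krt18, a keratin of simple epithelia, was the most abundant of the named epithelial genes, at 1721 to 14288 TPM in the cells (SD 0.980) and 7556 to 15646 TPM in the pools. Krt19 lay at 827 to 5572 TPM, and Cdh1, which encodes E-cadherin, at 16.7 to 276 TPM. Cldn7, a claudin of tight junctions, was at 166 to 984 TPM in 7 cells and at most 22.3 TPM in single cells 3 and 11, so these 4 genes were read in every cell. In contrast, Epcam, S100a14, Cldn4 and Krt6a were each below 1 TPM in at least 2 of the 9 cells. S100a14 and Cldn4 were listed at 0 in single cells 3, 8 and 11 alone. Vim, an intermediate filament of mesenchymal cells that was picked after its values were seen, was at 438, 40.6, 515 and 116 TPM in single cells 3, 4, 8 and 11 and at 0 to 0.143 TPM in the other 5, compared with 3.46 to 85.4 TPM in the pools, and its variance passed the test (limma, adjusted p = 0.026). The mesenchymal list followed Vim in part, and a sum of the list without Vim was not computed. Its sum was highest in single cells 8 and 3 (1701 and 1606 scaled TPM, 1105 and 1455 deposited TPM), where Vim was highest too, but it was 928 in single cell 1, where Vim was listed at 0, and 439 in single cell 4. The median pairwise r of its 3 abundant members was -0.10 over the 9 cells. Single cells 8 and 11 had the fewest detected genes, 3810 and 3978, and the part of this in their low values of S100a14 and Cldn4 was not tested.

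Ribosomal, respiratory chain, proteasome and glycolysis genes were among the least variable between cells by the median SD of their abundant members. All 69 abundant ribosomal protein genes were at 1 TPM or more in all 9 cells, with a median SD of 0.683 in the cells and 0.266 in the pools, and 15 of 69 exceeded genes of like level. Values of ribosomal protein genes are uncertain where reads can also fit processed copies elsewhere in the genome. Rpl23a was steadiest, from 341 to 761 TPM in the cells. Of 68 abundant respiratory chain genes 65 were read in all cells, with a median SD of 0.696, and Cyc1 (cytochrome c1), which varied most, was at 242 to 966 TPM in 8 cells and at 0 in single cell 11. The 8 abundant glycolysis genes had a median SD of 0.803, but the sum of the glycolysis list was not steady. It spanned 4.31-fold over the cells, from 5661 to 24416 scaled TPM, and 1.75-fold over the pools. The sum of the stress response list spanned 3.81-fold over the cells. In deposited TPM the glycolysis sum ran from 3697 in single cell 5 to 16193 in single cell 3. The proteasome list had a median SD of 0.807 and its sum spanned 1.52-fold over the cells, from 13917 to 21107 scaled TPM. In deposited TPM, without the rescaling, the sum ran from 8089 in single cell 7 to 19748 in single cell 4, and from 14442 to 18445 in the pools. Even in these lists of low SD, members were more spread in cells than in pools, where the medians were 0.299 for the respiratory chain and 0.234 for the proteasome.

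The remaining lists are described more briefly. The 14 abundant immediate-early genes, which respond within minutes to serum and handling, had a median SD of 1.44 in the cells and 0.511 in the pools. Their median pairwise r over the 9 cells was 0.143, compared with 0.148 for all abundant genes. The sum of the whole list was not more spread in the cells, at 1.93-fold compared with 2.07-fold in the pools (scaled TPM). In deposited TPM it ran from 2910 to 8328 in the cells and from 4814 to 10024 in the pools. Ctgf, a matricellular protein, varied most among the abundant immediate-early genes (SD 3.78, from 0 to 624 TPM), and its variance passed the test (limma, adjusted p = 0.039), whereas Ier2 varied least (SD 0.626, from 144 to 540 TPM). The 5 abundant cholesterol synthesis genes had a median SD of 2.24 over all 9 cells, but 1.04 within single cells 1 to 4 and 1.24 within single cells 5, 7, 8, 10 and 11. Medians were 1.62 for 8 ribosome biogenesis genes, 1.19 for 20 chaperones, 1.11 for 13 S100 proteins and annexins and 0.791 for 3 MHC class I and interferon response genes. The small heat shock protein Hspb1 stood out among chaperones (SD 3.15), at 25.4 to 187 TPM in 5 cells and at 0 in single cells 3, 4, 8 and 11, compared with 74.1 to 226 TPM in the pools (limma, adjusted p = 0.019). Only 1 histone gene, Hist1h2bc, and no gastric-type gene was abundant, so those lists have no median to read.

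For 91 abundant genes, 3 to 6 of the 9 cells were below 1 TPM, and 79 of the 91 were below 1 TPM in single cell 11, 68 in single cell 8, 46 in single cell 3 and 44 in single cell 7, but 4 and 5 in single cells 1 and 4. Single cells 11 and 8 also had the fewest detected genes, and the part of this in the misses was not tested. The 8 of these with the highest pool median were Cxcl5, Ube2c, Gpx3 (an extracellular glutathione peroxidase), S100a14, Dynap, Cldn4, Cnn2 (a calponin) and Krt6a. Gpx3 was listed at 0 in single cells 3, 8 and 11 and reached at most 122 TPM in the others, below each of the 12 pools (221 to 572 TPM). Cnn2 was below 1 TPM in single cells 2, 7 and 8 and at 43.8 to 484 TPM in the other 6, compared with 165 to 447 TPM in the pools. Spp1, the secreted protein osteopontin, was the abundant gene of the mesenchymal list that varied most (SD 3.91), at 762, 22.7 and 256 TPM in single cells 3, 4 and 8 and at 0 in the other 6, while every pool lay between 42.2 and 367 TPM.

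Genes read in all 9 cells could also vary widely, and these were looked at after their values were seen. The 12 most variable of the 1165 were Cct7, Clpp, Shmt2, Nmt1, Asns, Crip1, Eif3g, Adss, Lcn2, Pfdn2, Eif4h and Cxcl1, with SDs of 2.41 to 2.68. For 9 of the 12 the lowest cell lay between 1.04 TPM (Shmt2) and 3.97 TPM (Adss), close to the limit of 1 TPM, and these values enter their SD. In contrast, the lowest cell was at 13.2 TPM for Crip1, 32.9 TPM for Cxcl1 and 111 TPM for Lcn2. Asns, which encodes asparagine synthetase, lay at 605 to 1562 TPM in single cells 1, 2, 4 and 5 and at 2.97 to 206 TPM in the other 5, with the pools at 517 to 1035 TPM. Crip1, a LIM domain protein, went the other way, from 13.2 TPM in single cell 2 to 5678 TPM in single cell 11. Restricted to genes read in all 9 cells, the median SD was 2.41 for 3 cytokine list genes and 1.73 for 7 stress response genes, compared with 0.683 for 69 ribosomal protein and 0.688 for 65 respiratory chain genes and 0.900 for all 1165. Several other lists came closer to all genes under this restriction, at 1.39 for 6 synthetases and 1.36 for 5 G2/M genes. The medians were 1.22 for 2 cholesterol synthesis genes, 1.15 for 4 p53 targets and 1.13 for 2 G1/S genes. Ribosome biogenesis (1.43, 6 genes), epithelial (1.31, 10 genes) and chaperone genes (1.16, 19 genes) did not come closer.

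In a principal component analysis of the 1750 abundant genes over the 9 cells, component 1 held 32.7% and component 2 held 19.0% of the variance. Scores on component 1 ran from -85.5 in single cell 11 and -51.0 in single cell 8 to 43.8 in single cell 1, and followed the number of detected genes at r = 0.84 over 9 cells. Its largest positive loadings were those of Gadd45a (a stress-induced growth arrest gene), Cyb5r1, Dynap, Cth (cysteine synthesis) and Gpx2, and its largest negative loadings those of Tmem176a, Rrm2, Ecm1, Crip1 and Cbr1. Gadd45a was at 189 to 646 TPM in single cells 1, 2, 4 and 5 and at 0 in single cells 8 and 11. Component 2 set single cell 8 (-72.2) against single cell 11 (59.4), with Ube2c, Cxcl5, Spp1, Hat1 and Ccnb2 at 1 end and Ly6a, Rabac1, Sqstm1, Ypel3 and Napa at the other. Ly6a, the surface antigen Sca-1, was at 626 to 4746 TPM in 8 cells and listed at 0 in single cell 8, although its pool median was 3295 TPM.

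Gene length and base composition did not run in 1 direction along this scale. When the 1750 abundant genes were divided into 5 groups of 350 by their SD beyond genes of like level, the median longest transcript was, from the least to the most variable group, 2191, 1641, 1976, 2194 and 1974 bases, with 1986 bases over all. The median GC content of the groups was 49.2% to 50.3%, with 49.8% over all. Lengths were found for 1698 of the 1750 genes in GENCODE M21.

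Most markers of blood cells in the table were listed at or near 0 in the single cells. As said above, a gene listed at 0 cannot be called absent. Of the marker lists, 3 of 12 leukocyte, 1 of 10 erythroid, 3 of 8 platelet, 3 of 11 neutrophil, 2 of 11 acinar and 0 of 8 fibroblast genes were in the table, and the rest were not analysed here. The leukocyte, erythroid and acinar genes summed to 0 in each of the 9 cells, and to at most 4.98, 3.93 and 1.85 scaled TPM in a pool. Platelet genes reached 1.92 scaled TPM in single cell 4 and were at 0 in the other 8. The neutrophil list, which here holds S100a8, S100a9 and Ltf, was at 0 in single cells 1, 2, 5 and 7 and at 0.764 to 66.3 scaled TPM in the other 5, and at 0 to 138 in the pools.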

How the data were processed

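Libraries of PD798 were made with SMART-Seq v4 and sequenced as read pairs. The authors aligned reads to mm10 with ERCC92 added (STAR, featureCounts), applied upper-quartile normalization (EDASeq) and deposited values as TPM, which take effective gene length into account. The annotation used for counting is not given in the sources used here. All spreads were computed here on log2(TPM + 1), the pseudocount being 1 TPM. Chromosomes came from GENCODE M21 (13302 of 13817 symbols) or RefSeq (485), and 30 genes had none. The separate table of 12 bulk libraries was not used. A further allele of the line is not reported here.

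Variance was tested with limma 3.58.1 in R 4.3.3 (mean-variance trend, Benjamini-Hochberg at 0.05), detection with Fisher's exact test, and genes per library by permutation (scipy 1.17.1). The members, gene lists and tests were chosen with earlier results of these data known. Named genes are the 10 highest and 5 lowest SDs among abundant genes, the 8 genes of highest pool level among those below 1 TPM in 3 to 6 cells, 5 genes per direction of the test and per end of components 1 and 2, the extremes of each list, and 5 epithelial genes. Other named genes, Atf4, Cdk1, Mdm2, Cxcl1, Cxcl3, Lcn2, Asns, Shmt2 and Vim among them, were picked after their values were seen. Alternatives were another pseudocount, filter, scaling, centre and measure of spread, other limits of detection, all chromosomes, a replicate block and leaving out libraries.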

Additional observations from a re-analysis of the deposited data

Results flagged for a closer look

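Over the 9 single cells, 26 sets of values (summed levels of lists, numbers of genes and table sums) were searched for a cell whose gap to its nearest neighbour exceeded Dixon's 95% critical value, and 4 were found. For normally distributed values of unselected cells chance marks about 1 set in 20. That rate does not hold here, since the 9 cells were selected on their expression profiles, and the search is a description. It also fails for sums that are mostly 0, such as the platelet set, where any single value above 0 is marked. Gastric-type mucins and secretory proteins summed to 11315 scaled TPM in single cell 11, compared with 0 to 590 in the other 8 cells and 21.4 to 522 in the pools. This sum was led by Gkn1 (5884 deposited TPM) and Gkn2 (1373 deposited TPM), gastrokines of the stomach lining. Muc5ac was at 115 deposited TPM there and at 0 in the other 8. These gene values are not rescaled and cannot be set directly against the scaled sum, since the table of single cell 11 held 65.1% of the nominal total. Neutrophil genes summed to 66.3 scaled TPM in the same cell, mostly from S100a8, with pools reaching 138. Platelet genes were at 1.92 scaled TPM in single cell 4 alone. Replication-dependent histones summed to 473 scaled TPM in single cell 8, within the range of the pools (73.2 to 578), and histone genes are near-identical copies that counting can split.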

How the results depend on the processing

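The difference in detected genes kept its direction and significance at above 0 TPM (-4302.5 genes), at 5 TPM (-2330.5) and without single cells 1 to 4 (-4589). Values without single cells 6 and 9 (here -4153) are a description, since those cells were set apart by their profiles. The counts of called genes did not hold. Genes more variable in single cells (1891) numbered 679 without single cells 1 to 4, 7218 with deviations from the mean, 439 without pools 5 and 12 (set after seeing the data) and 890 to 3096 without 1 library, lower without any pool and higher without any cell. Genes more variable in pools (73) numbered 48 with a pseudocount of 0.1, 0 at 10 TPM or more over the pools (a filter set on the pools, which removes genes of low pool level such as the 5 named; 2748 of the 6272 left were more variable in single cells), 768 without single cells 6 and 9, 0 without single cells 1 to 4, 524 with deviations from the mean, 14 without pools 5 and 12, 484 without these and single cells 6 and 9 (both set after seeing the data) and 18 to 349 without 1 library. With the replicate number as a replicate block both counts were 0 (4494 genes at an unadjusted p under 0.05), but same-numbered libraries did not deviate together (r of -0.108 to 0.0902 over 11 pairs) and share only a number. Genes of lower detection (1253) numbered 0 at 5 TPM, 2922 without single cells 6 and 9, 0 without single cells 1 to 4, 0 without pools 5 and 12 and 0 to 2438 without 1 library. Genes of higher detection numbered 0 under each of these (Fisher's exact test, 5 genes at an unadjusted p under 0.05 with all libraries). The cause of these shifts was not tested. The median SD over genes in the 9 cells (1.73) was 2.94 with a pseudocount of 0.1, 1.20 in abundant genes, 0.317 as a median absolute deviation, 1.41 without single cells 5, 7, 8, 10 and 11 (set after seeing the data) and 1.67 to 1.75 without 1 cell. In the pools (0.676) it was 0.888, 0.314 and 0.523 under the first 3 of these, 0.383 in genes of at least 100 TPM in bulk RNA (set after seeing the data, 1.74 in the cells) and 0.646 to 0.684 without 1 pool. Of list medians, those of chaperones (1.15 beside 1.13, with single cells 6 and 9), of S100 proteins and annexins (1.25 beside 1.17 without single cells 1 to 4, 0.917 beside 0.827 within them) and of MHC class I genes (0.918 beside 0.827 within single cells 1 to 4) changed sides of the median of all abundant genes. TPM holds no read numbers, so misses of low genes could not be set against depth.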
